A study of Mus musculus with 12 samples.

Results

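The laminin and nidogen genes of C2C12 myotubes were described as 10 genes, chosen by symbol alone from the 55487 genes of the count table: the laminin alpha chains Lama1, Lama2, Lama3, Lama4 and Lama5, the beta chains Lamb1 and Lamb2, the gamma chain Lamc1, and the nidogens Nid1 and Nid2. C2C12 is an established mouse muscle cell line whose myoblasts stop dividing and fuse into myotubes in medium poor in serum. Myotubes that had differentiated for 5 days in DMEM with 2% horse serum and Pen/Strep were moved for 24 h to DMEM with Pen/Strep and either 4% horse serum (control) or 4% STEM, and 6 libraries were sequenced per group. STEM is the set of factors secreted by human embryonic stem cells that have begun to differentiate, without the cells themselves. Because it replaced horse serum, the addition of STEM and the removal of horse serum cannot be told apart, and a single line in culture stands for muscle here. The labels do not say whether the libraries of a group came from separate cultures, so that p-values measure the spread between these libraries, which may be technical.

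Laminins are secreted trimers of an alpha, a beta and a gamma chain that polymerise on the cell surface and start the assembly of a basement membrane. The alpha chain carries the sites for the receptors integrin and alpha-dystroglycan, and nidogens bind the gamma chain encoded by Lamc1 and join the laminin sheet to type IV collagen. In skeletal muscle the trimer that contains the Lama2 chain surrounds the adult fibre and its loss causes a congenital muscular dystrophy, whereas the chains of Lama1 and Lama5 are known from embryonic muscle and the Lamb2 chain from the neuromuscular junction.

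Total counts were between 13285472 and 18254882 in the horse serum libraries (median 15533472) and between 14909485 and 24536264 in the STEM libraries (median 15740424). Values per library are given as CPM, counts scaled to the TMM-normalised total of the library. Horse serum library 6 stood apart from the other libraries. On the principal component that held 44.2% of the variance it lay at 11.2, whereas the rest of the horse serum group spanned -35.5 to -24.6 and the STEM group 15.5 to 28.6. On the next component, with 19.8% of the variance, it lay at -53.3 and the other 11 libraries between 0.216 and 11.8, so that it stood apart from both groups. It was also the lowest horse serum library for 10 of 10 myotube markers, with a mean log2 CPM of 8.73 against 10.09 to 10.24 in the other horse serum libraries. Of the 9 members that could be tested, library 6 was the highest of its group for 7 and the lowest for 2, Lama2 and Lama4. Results for the members are therefore also given without it, and the named genes of the lists below that passed the test also did so without it.

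Of the 10 genes, 9 passed the filter on low counts and 5 of these were differentially expressed at an edgeR adjusted p of 0.05 or less, in a comparison in which 36.4% of all tested genes were. The same 5 genes were called without library 6, where 50.8% of all tested genes were, by DESeq2 (29.3% of all) and by limma-voom (35.1% of all). Lama1, Lamb2 and Lamc1 rose with STEM, where 18.9% of all tested genes were higher. Lama2 and Nid2 fell, where 17.4% of all tested genes were lower. Lama4, Lama5, Lamb1 and Nid1 did not pass the test and Lama3 was not tested. The median log2 fold change of the 9 genes was -0.02, against 0.01 over all 14175 tested genes. Horse serum and STEM libraries were fully separate for Lama1 and Lamc1, as for 17.2% of all tested genes. Without library 6 they were also separate for Lama2 and Lamb2, when 33.4% of all tested genes showed no overlap.

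**Figure D1:**
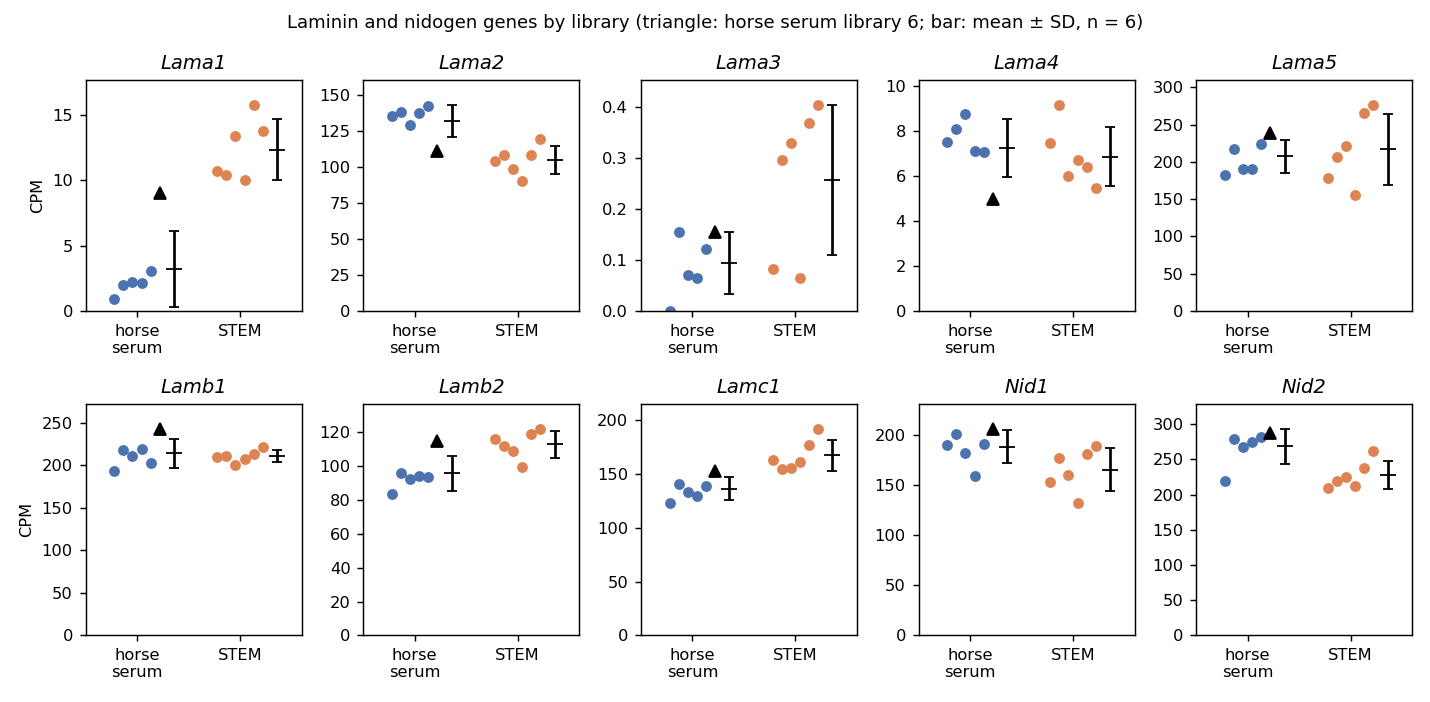
Each panel plots the CPM of a gene (linear axis from 0) in the 6 horse serum and 6 STEM libraries, with the mean ± SD beside the points and horse serum library 6 as a triangle. For Lama1 and Lamc1 all STEM points lie above all horse serum points, and for Lama2 the groups touch only through library 6.

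Sequence was available before the start of 5 of the 10 genes, as RefSeq windows of 300 bases on GRCm38.p6. Those of Lama2, Lamb2 and Lamb1 are shown because these genes fell, rose and did not pass the test, respectively. Each is the upstream part of the window, up to the first annotated exon base within the window, read 5′ to 3′ on the strand of the gene, and comes from chr10:27616943-27617192 on the minus strand for Lama2, chr9:108479612-108479735 on the plus strand for Lamb2 and chr12:31265043-31265233 on the plus strand for Lamb1. Capitals mark matches to the E-box (CANNTG) and the GC box (GGGCGG), searched on both strands.
Lama2: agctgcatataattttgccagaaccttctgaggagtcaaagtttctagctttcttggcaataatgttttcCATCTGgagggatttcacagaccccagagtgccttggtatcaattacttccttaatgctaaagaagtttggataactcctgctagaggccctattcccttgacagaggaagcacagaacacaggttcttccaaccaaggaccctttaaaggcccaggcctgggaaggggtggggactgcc
Lamb2: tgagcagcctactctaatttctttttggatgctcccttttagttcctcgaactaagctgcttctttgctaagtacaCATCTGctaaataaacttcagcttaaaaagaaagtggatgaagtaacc
Lamb1: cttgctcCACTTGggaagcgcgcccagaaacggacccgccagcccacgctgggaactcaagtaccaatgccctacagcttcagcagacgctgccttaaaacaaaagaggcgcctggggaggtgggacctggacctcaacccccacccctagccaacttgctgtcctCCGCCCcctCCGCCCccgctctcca
The Lama2 and Lamb2 stretches each hold 1 E-box and no GC box, and the Lamb1 stretch holds 1 E-box and 2 GC boxes side by side near its downstream end. Over the whole windows of 300 bases the counts were 1 E-box and 1 GC box for Lama2, 1 E-box and no GC box for Lamb2, and 2 of each for Lamb1. An E-box is found in 72.3% and a GC box in 35.7% of the 32851 RefSeq windows of the same 300 bases. The RefSeq start of Lama2 lies inside the longer span that GENCODE gives the gene. Over the whole windows, the GC content was 44% for Lamb2, 50.3% for Lama2, 63.7% for Lamb1, 64.7% for Nid1 and 72.7% for Lama5. No window of the 5 held the letters TATAAA, which 13.6% of all windows hold, and CCAAT was present in those of Lamb1 and Nid1, against 37.4% of all windows.

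Among the alpha chains, the gene with the largest change was Lama1 (ENSMUSG00000032796, GRCm38 chr17:67697259-67822647), which encodes the alpha chain of the earliest embryonic basement membranes. Lama1 was at 0.891, 2.01, 2.19, 2.12, 3.08 and 9.02 CPM in horse serum libraries 1 to 6. In STEM libraries 7 to 12 it was at 10.7, 10.4, 13.4, 10, 15.8 and 13.8 CPM. The groups did not overlap, and library 6 lay closer to the lowest STEM library than to any library of its own group. Lama1 rose from a mean of 3.22 ± 2.93 to 12.4 ± 2.32 CPM (SD, n = 6 each), a log2 fold change of 1.87 (SE 0.40, edgeR adjusted p = 0.00312). Without library 6 the mean in horse serum was 2.06 ± 0.78 CPM (SD, n = 5) and the log2 fold change was 2.56 (SE 0.21, edgeR adjusted p = 1.72e-07). These values rest on 13 to 176 counts per library in horse serum and 155 to 263 with STEM. Of the 4 alpha chains tested Lama1 had the largest relative change, at a low level.

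Lama2 (ENSMUSG00000019899, chr10:26980036-27619758, minus strand) encodes the alpha chain of the adult fibre. It had a lowest, median and highest value of 111, 136 and 142 CPM in horse serum. With STEM these were 90.1, 106 and 119 CPM. The other 5 horse serum libraries lay above all STEM libraries, and only horse serum library 6 lay among the STEM values. The mean fell from 132 ± 11.3 to 105 ± 9.86 CPM (SD, n = 6 each). This was a log2 fold change of -0.33 (SE 0.07, edgeR adjusted p = 0.00175), and of -0.38 (SE 0.054, edgeR adjusted p = 1.28e-05) without library 6. Lama1 and Lama2 therefore moved in opposite directions in the same libraries.

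Lama5 (ENSMUSG00000015647, chr2:180176373-180225859, minus strand), whose chain is found in many basement membranes of embryo and adult, was the most abundant alpha chain. It ranged from 183 to 239 CPM in horse serum and from 155 to 277 CPM with STEM. The STEM libraries spanned the whole range of the controls and went past it at both ends, and the log2 fold change was 0.07 (SE 0.13, edgeR adjusted p = 0.722). Lama4 (ENSMUSG00000019846, chr10:38965515-39110188), whose chain is best known from vessel walls, had a mean of 7.26 ± 1.29 CPM in the controls and of 6.87 ± 1.32 CPM in the STEM libraries (SD, n = 6 each), a log2 fold change of -0.07 (SE 0.14, edgeR adjusted p = 0.748). Lama3, which encodes an alpha chain of epithelia, was near the floor of 3 counts, with 0, 2, 1, 1, 2 and 3 counts in horse serum libraries 1 to 6. It had 2, 5, 5, 1, 6 and 6 counts in STEM libraries 7 to 12. The groups overlapped, and a difference in Lama3 was not detectable at this depth (edgeR with no filter on low counts, adjusted p = 0.167). Floors cover counting error only.

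Of the beta chains, Lamb2 rose and Lamb1 did not pass the test. Lamb1 (ENSMUSG00000002900, chr12:31265234-31329644) encodes the beta chain of most laminins of the fibre surface. Its mean was 215 ± 17.1 CPM in the controls and 211 ± 7.0 CPM in the STEM libraries (SD, n = 6 each). All 6 STEM libraries lay within the range of the horse serum libraries, and the log2 fold change was -0.02 (SE 0.052, edgeR adjusted p = 0.749). Lamb2 (ENSMUSG00000052911, chr9:108479736-108490530), the beta chain of the neuromuscular junction, had a lowest, median and highest value of 83.5, 93.8 and 115 CPM in horse serum. With STEM these were 99.6, 114 and 122 CPM. The groups overlapped only through library 6, at 115 CPM, and 3 of 6 STEM libraries exceeded every horse serum library. Lamb2 rose with a log2 fold change of 0.24 (SE 0.069, edgeR adjusted p = 0.0147), and 0.30 (SE 0.051, edgeR adjusted p = 7.11e-05) without library 6.

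Within each library, the ratio of Lamb2 to Lamb1 in CPM was between 0.43 and 0.473 in horse serum and between 0.481 and 0.558 with STEM. This ratio did not overlap between the groups, with library 6 included. It is a description of unequal change and not a test.

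Lamc1 (ENSMUSG00000026478, chr1:153218922-153332786, minus strand) encodes the gamma chain that nearly all laminins of muscle share. It had a lowest, median and highest value of 123, 136 and 153 CPM in horse serum. With STEM these were 155, 162 and 192 CPM. All STEM values lay above all horse serum values, with library 6 the highest of its group. The log2 fold change was 0.29 (SE 0.063, edgeR adjusted p = 0.00198), from 136 ± 10.3 to 167 ± 14.3 CPM (SD, n = 6 each), and 0.33 (SE 0.054, edgeR adjusted p = 4.97e-05) without library 6. The ratio of Lamc1 to Lamb1 was between 0.593 and 0.685 in horse serum and between 0.735 and 0.863 with STEM, so that it too did not overlap between the groups.

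Nid2 fell and Nid1 did not pass the test. Nid2 (ENSMUSG00000021806, chr14:19751265-19811787) had a lowest, median and highest value of 219, 277 and 287 CPM in horse serum. With STEM these were 209, 222 and 262 CPM. The overlap rested on horse serum library 1, at 219 CPM, as the other 5 lay at 268 CPM or above. The log2 fold change was -0.24 (SE 0.07, edgeR adjusted p = 0.0152), and -0.22 (SE 0.07, edgeR adjusted p = 0.0175) without library 6. The mean fell from 269 ± 25.1 to 228 ± 19.7 CPM (SD, n = 6 each). Nid2 shares 437 bases of exon with Rtraf on the opposite strand, a gene of 185 CPM in horse serum and 163 CPM with STEM (log2 fold change -0.19, edgeR adjusted p = 0.0301). Whether the counting used the strand is not given in the sources used here, and the part of Rtraf reads in the fall of Nid2 was not tested.

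Nid1 (ENSMUSG00000005397, chr13:13437551-13512269) ranged from 159 to 206 CPM in horse serum and from 132 to 189 CPM with STEM. The groups overlapped, and 2 of 6 STEM libraries lay below every horse serum library. The log2 fold change of -0.19 did not pass the test (SE 0.084, edgeR adjusted p = 0.093). It did so with an offset for exon length and GC content (log2 fold change -0.22, edgeR adjusted p = 0.0329) or without horse serum library 4 or STEM library 12 (-0.23 each, edgeR adjusted p = 0.0398 and 0.0485). Without library 6 the log2 fold changes of the uncalled members Lama4, Lama5, Lamb1 and Nid1 were -0.16, 0.11, 0.02 and -0.16 (edgeR adjusted p = 0.296, 0.578, 0.757 and 0.169).

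**Figure D2:**
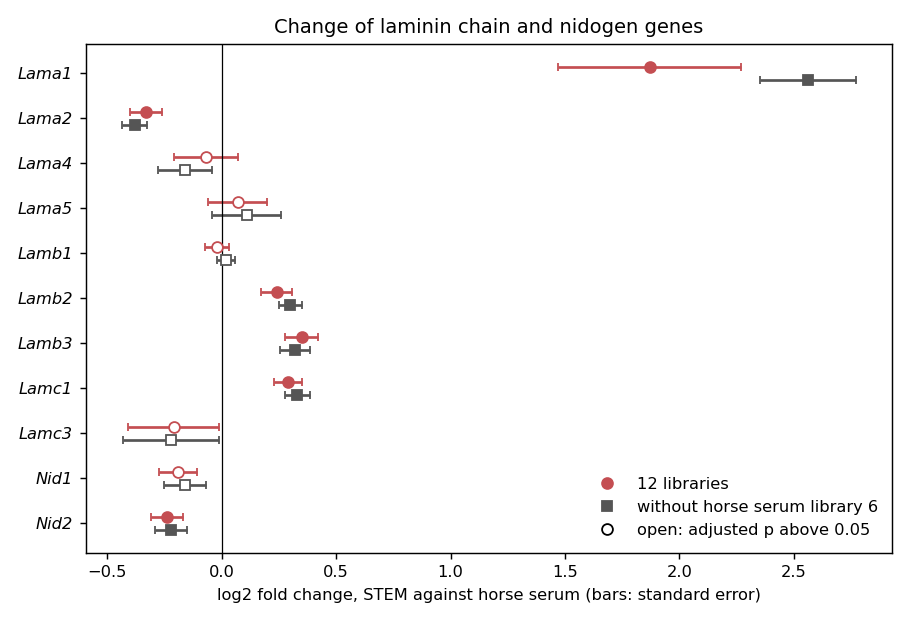
Log2 fold change of STEM against horse serum (linear axis, bars are standard errors) for 11 tested laminin chain and nidogen genes, with all 12 libraries (circles) and without horse serum library 6 (squares); open symbols have an edgeR adjusted p above 0.05. Lama1 moved from 1.87 to 2.56 without library 6, and Lama2, Lamb2, Lamb3, Lamc1 and Nid2 are filled with and without it.

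Lamb3 and Lamc3, further laminin chain genes, were described beside the members. The Lamb3 chain is known from the laminin of the skin, together with the Lama3 chain. Lamb3 was at 141 to 185 CPM in horse serum and at 175 to 223 CPM with STEM, and 5 of 6 STEM libraries exceeded every horse serum library. It rose from 160 ± 15.9 to 204 ± 18.2 CPM (SD, n = 6 each; log2 fold change 0.35, SE 0.072, edgeR adjusted p = 0.00142; 0.32, adjusted p = 0.00109, without library 6). Lamc3 had a mean of 1.88 ± 0.297 CPM in the controls and of 1.62 ± 0.498 CPM in the STEM libraries (SD, n = 6 each; log2 fold change -0.21, edgeR adjusted p = 0.433). Lamb3 was thus read in libraries in which its usual partner Lama3 was near the floor. Counts per gene do not show which exons were read.

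To compare genes with each other, CPM was divided by the length of the merged exons of each gene in kilobases. In horse serum, the level per length was highest for Nid2 (51.9 ± 4.8), followed by Nid1 (27.1 ± 2.4), Lamb3 (24.2 ± 2.4) and Lamb1 (21.6 ± 1.7; CPM per kb, SD, n = 6). Lama5 (18.2 ± 2.0), Lamc1 (16.5 ± 1.3) and Lamb2 (15.8 ± 1.7) came next, and neighbours among these 3 did not differ by more than the larger SD. Lama2 stood below them at 8.08 ± 0.69 CPM per kb. Lama4 (0.602), Lama1 (0.332), Lamc3 (0.309) and Lama3 (0.00874) were lower still. With library 6 included, neighbours among Lama4, Lama1 and Lamc3 did not differ by more than the larger SD. Lama1 was at 0.932 CPM per kb in library 6 and at 0.092 to 0.318 CPM per kb in the other horse serum libraries. Only in library 6 did Lama1 exceed Lama4 or Lamc3, so that its place in this order rests on that library.

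With all libraries included, the order of the levels per length of merged exons changed in 3 places with STEM. Lamb3, at 30.8 ± 2.8 CPM per kb, exceeded Nid1, at 23.8 ± 3.1 CPM per kb. Lamc1, at 20.2 ± 1.7 CPM per kb, stood before Lama5, at 19.1 ± 4.2 CPM per kb, and these did not differ by more than the larger SD. Lama1, at 1.28 ± 0.24 CPM per kb, exceeded Lama4, at 0.569 ± 0.11 CPM per kb, in all 6 libraries. With STEM Lama1 also stood above Lamc3 (0.267 CPM per kb), which it exceeded in horse serum only in library 6. Nid2 was again the highest at 44.0 ± 3.8 CPM per kb. Neighbours among Nid1, Lamb1, Lamc1, Lama5 and Lamb2 did not differ by more than the larger SD. With the longest transcript as the length, Lamb1 stood next to Nid2 in horse serum (37.1 CPM per kb) and Lamb3 (32.8 CPM per kb) stood before Nid1 (30.9 CPM per kb), so that the change in the order of Lamb3 and Nid1 was not seen with this length. By this length Lamb3 (41.9 CPM per kb) stood before Lamb1 (36.5 CPM per kb) with STEM, and Lama5 (19.1 CPM per kb) after Lamb2 (20.1 CPM per kb).

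**Figure D3:**
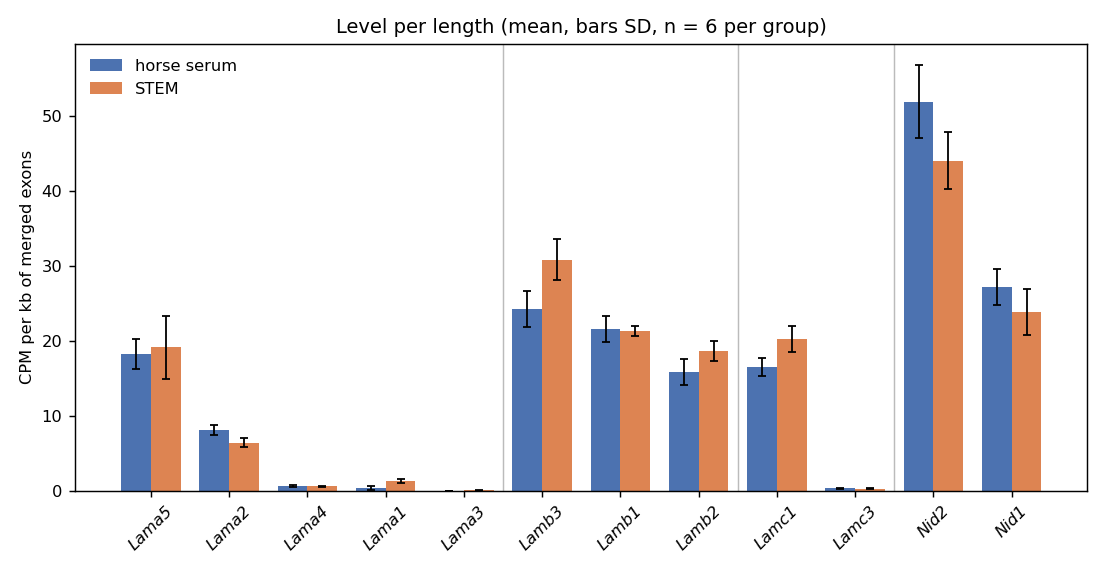
Bars give the mean level per length (CPM per kb of merged exons, linear axis from 0) of each gene in horse serum and STEM libraries, error bars the SD over 6 libraries, and vertical lines separate alpha chains, beta chains, Lamc1 and Lamc3, and nidogens. Lama5 is the highest alpha chain and Nid2 the highest gene in both groups.

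As a share of the summed level of the 5 alpha chains, Lama5 held 66.7% ± 2.9 in horse serum and 69.3% ± 3.1 with STEM (SD, n = 6 each). Lama2 held 29.8% ± 3.5 in horse serum (31.1% without library 6) and 23.8% ± 2.7 with STEM. Lama1 held between 0.367% and 3.2% in horse serum and between 4.05% and 5.09% with STEM, and this share did not overlap between the groups. The summed alpha chain level was 27.2 ± 1.9 CPM per kb in horse serum and 27.3 ± 4.9 CPM per kb with STEM. With the longest transcript as the length, Lama5 held 54.3% in horse serum and 58.4% with STEM, still the largest share. Lama2 then held 41.1% in horse serum and 34% with STEM, so that the distance between these genes depends on the length used.

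Among the beta chains, Lamb1 held 33.4% to 37.9% of the summed level of Lamb1, Lamb2 and Lamb3 in horse serum and 28.7% to 32.8% with STEM. Its share did not overlap between the groups although its own CPM did. The summed beta chain level was 61.6 ± 3.4 CPM per kb in horse serum and 70.7 ± 3.7 CPM per kb with STEM. The summed nidogen level was 79.0 ± 5.6 CPM per kb in horse serum and 67.8 ± 6.5 CPM per kb with STEM, and Nid2 held 65.6% and 65.0% of it. These levels, sums and shares are descriptions (SD, n = 6 each) and were not tested.

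The members varied together to different degrees within the groups. After the mean of each group was removed, Lamb1 and Lamb2 had a Pearson correlation of 0.874 over the 12 libraries, Lamb2 and Lamc1 of 0.799, and Lama1 and Lamb2 of 0.859. Lama4 was negatively correlated with Lama1 (-0.67) and Lamc1 (-0.658). Without library 6, over 11 libraries, these correlations were 0.729, 0.72, 0.672, -0.291 and -0.492 in the same order. The highest correlation among the pairs computed was that of Lama5 with Hspg2, the gene of the heparan sulphate proteoglycan perlecan, at 0.976, and Nid1 had a correlation of 0.92 with Hspg2 (0.974 and 0.913 without library 6). Without library 6 the highest was that of Lamb2 with Col4a2, at 0.978 (0.862 over the 12 libraries). Among the 9343 genes of at least 10 CPM on average, those most like Lamc1 were Gon4l (0.953), Gtf3c2 (0.951), Usp36 (0.95), Whrn (0.948) and Polrmt (0.937). When a library was left out, 2 to 4 of these 5 were among the 5 genes most like Lamc1 (3 without library 6). All of these are descriptions over 12 libraries that share their depth and normalisation within each library.

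The genes that bind, modify or surround laminin were examined as lists. Of 14 laminin receptor genes 13 were tested, and 3 rose and 6 fell with STEM (18.9% and 17.4% of all tested genes), with a median log2 fold change of -0.23 against 0.01 over all tested genes. Itga3, an integrin alpha chain for laminin, fell from 59.5 ± 6.44 to 36.6 ± 4.06 CPM (SD, n = 6 each; log2 fold change -0.70, SE 0.082, edgeR adjusted p = 1.74e-05). Itga7, the main laminin-binding integrin alpha chain of muscle fibres, fell from 1110 ± 49.4 to 923 ± 29.5 CPM (SD, n = 6 each; log2 fold change -0.26, SE 0.045, edgeR adjusted p = 0.000414). The groups did not overlap for Itga3 or Itga7.

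Of the 4 syndecan genes, which encode proteoglycans of the cell surface, Sdc1 and Sdc2 rose, Sdc4 fell and Sdc3 did not pass the test. Sdc1 went from 386 ± 40.7 to 512 ± 13.3 CPM (SD, n = 6 each; log2 fold change 0.41, SE 0.061, edgeR adjusted p = 0.000126). Sdc2 went from 582 ± 41.6 to 726 ± 24.0 CPM (SD, n = 6 each; log2 fold change 0.32, SE 0.052, edgeR adjusted p = 0.000249). Sdc4 and Sdc3 were named after their values were seen. Sdc4 went from 229 ± 47.3 to 123 ± 24.2 CPM (SD, n = 6 each; log2 fold change -0.89, SE 0.16, edgeR adjusted p = 0.00117), and library 6, at 135 CPM, lay among the STEM libraries. Sdc3 was at 47.9 CPM in horse serum and 47.7 CPM with STEM (edgeR adjusted p = 0.994). Cd151, a tetraspanin partner of these integrins, was at 170 CPM in horse serum and 162 CPM with STEM and did not pass the test (edgeR adjusted p = 0.214). Dag1 and Itgb1, further receptors of the fibre, were chosen after their values were seen. Dag1, which encodes dystroglycan, rose from 337 ± 23.9 to 425 ± 54.6 CPM (SD, n = 6 each; log2 fold change 0.34, edgeR adjusted p = 0.00349). Itgb1, the beta partner of Itga7, fell from 1270 ± 87.0 to 1130 ± 60.6 CPM (SD, n = 6 each; log2 fold change -0.17, edgeR adjusted p = 0.0247). The integrin genes Itga7 and Itgb1 and the dystroglycan gene Dag1 thus moved in opposite directions at the RNA level.

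Alpha-dystroglycan binds laminin through a sugar chain built on O-linked mannose. Of 12 genes for enzymes that act on such mannose structures 11 were tested, of which 4 passed the test, all of them higher (18.9% of all tested genes were called higher and 36.4% in either direction), with a median log2 fold change of 0.11 against 0.01 over all tested genes. Without library 6 there were 5 of 11, each of them higher, where 3746 of 14267 tested genes were higher and 50.8% were called in either direction. Pomgnt1, which adds an N-acetylglucosamine to O-linked mannose, rose from 85.4 ± 6.06 to 112 ± 3.0 CPM (SD, n = 6 each; log2 fold change 0.40, SE 0.049, edgeR adjusted p = 2.51e-05). B3galnt2, which adds an N-acetylgalactosamine on a different core of O-linked mannose, after the N-acetylglucosamine that Pomgnt2 adds there, rose from 48.2 ± 3.9 to 65.1 ± 3.21 CPM (SD, n = 6 each; log2 fold change 0.44, SE 0.058, edgeR adjusted p = 4.71e-05). Pomgnt2, named after its values were seen, was at 2.35 CPM in horse serum and 2.31 CPM with STEM (edgeR adjusted p = 0.985). The rises of the kinase gene Pomk (log2 fold change 0.22, edgeR adjusted p = 0.0138) and the xylosyltransferase gene Rxylt1 (0.16, adjusted p = 0.0288) were smaller.

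Of 6 netrin genes, relatives of laminin by sequence, 3 were tested and 1 was differentially expressed, where 36.4% of all tested genes were. Ntn1 fell from 49.4 ± 3.99 to 30.6 ± 2.47 CPM (SD, n = 6 each; log2 fold change -0.69, SE 0.068, edgeR adjusted p = 3.34e-06), with no overlap. Ntn4, which is known to bind laminin and to loosen its network, was at 45.2 CPM in horse serum and 51.4 CPM with STEM (log2 fold change 0.19, edgeR adjusted p = 0.108).

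Of 22 other basement membrane genes 16 were tested, of which 9 rose and 1 fell (18.9% and 17.4% of all tested genes), with a median log2 fold change of 0.38. The laminins and nidogens, with 3 higher and 2 lower of 9 and a median of -0.02, lay nearer to the median of all tested genes (0.01). Whether the lists differ was not tested. Col18a1, a collagen with heparan sulphate chains, rose from 202 ± 53.2 to 493 ± 37.5 CPM (SD, n = 6 each; log2 fold change 1.29, SE 0.14, edgeR adjusted p = 1.56e-05). Pxdn, the peroxidase that crosslinks type IV collagen, rose from 221 to 421 CPM (log2 fold change 0.93, edgeR adjusted p = 4.7e-05). Smoc2 rose from 13.4 to 25.7 CPM (0.94, edgeR adjusted p = 3.03e-06), and Sparc, a collagen-binding protein, from 2370 to 3320 CPM (0.49, edgeR adjusted p = 2.06e-06). Both are secreted calcium-binding proteins.

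The type IV collagen genes, which encode the network that nidogens join to laminin, were named after their values were seen. Col4a1 rose from 332 to 394 CPM (log2 fold change 0.25, edgeR adjusted p = 0.0022) and Col4a2 from 195 to 243 CPM (0.32, edgeR adjusted p = 0.00106). Col4a5 was at 12.9 CPM in horse serum and 14.8 CPM with STEM and did not pass the test (0.20, edgeR adjusted p = 0.165). It did so without library 6 (0.30, edgeR adjusted p = 0.00489). Col4a3, Col4a4 and Col4a6 did not pass the filter on low counts. Hspg2 was at 220 to 401 CPM in horse serum and at 237 to 667 CPM with STEM. Its groups overlapped and its log2 fold change of 0.52 did not pass the test (SE 0.25, edgeR adjusted p = 0.126).

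**Figure D4:**
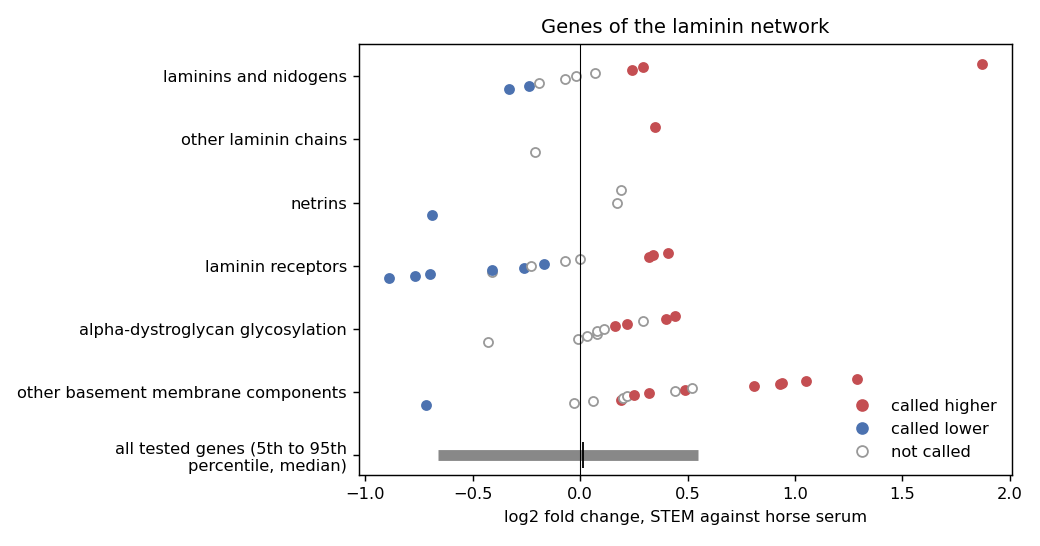
Each point is the log2 fold change (linear axis) of a tested gene of the named list, filled where the edgeR adjusted p was 0.05 or less (red higher, blue lower with STEM), and the grey bar spans the 5th to 95th percentile of all tested genes, from -0.66 to 0.55. Other basement membrane components lie mostly to the right of 0, and Lama1 lies farthest from the bar.

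In bulk RNA, fewer cells of a type and less RNA per cell cannot be told apart, so markers of the cells that could make these proteins were measured. The myotube markers, with Ttn as the most abundant, summed to 18000 ± 3420 CPM in horse serum, 11300 CPM in library 6 and 18800 ± 2320 CPM with STEM, and 2 of 10 passed the test, each of them lower, where 17.4% of all tested genes were lower. Without library 6 there were 5 of 10, each of them lower, where 3499 of 14267 tested genes were lower and 50.8% were called in either direction. Of 8 markers of undifferentiated myoblasts 1, Cdh15, rose and 4 fell (18.9% and 17.4% of all tested genes), and their sum was 1180 ± 164 CPM in horse serum and 1070 ± 40.9 CPM with STEM. Of 6 fibroblast markers 4 were tested and 2 rose (18.9% of all tested genes), with a sum of 391 ± 80.5 CPM in horse serum and 633 ± 172 CPM with STEM. Without library 6 there were 3 of 4, each of them higher (3746 of 14267 tested genes were higher and 50.8% were called in either direction). Col1a1, the most abundant of them, went from 367 to 600 CPM (log2 fold change 0.71, edgeR adjusted p = 0.0161), whereas Lum and Tcf21 had at most 3 counts in every library.

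Markers of endothelial cells and leukocytes were low. Of 5 endothelial markers 0 passed the filter, and Tek was the most abundant in a sum of 0.588 CPM in horse serum and 0.603 CPM with STEM. Pecam1, Kdr and Emcn had at most 3 counts in every library. The leukocyte markers summed to 4.26 and 5.07 CPM, most of it Cd68 (3.60 and 3.88 CPM, edgeR adjusted p = 0.61). Csf1r, a receptor of macrophages, went from 0.288 to 0.916 CPM and did not pass the filter with all 12 libraries, but was tested and called higher without library 6 (log2 fold change 1.45, edgeR adjusted p = 0.00234). Itgam went the other way, from 0.295 to 0.207 CPM, and did not pass the filter with or without library 6. Adgre1 was at 0 counts in every library, and Ptprc and Lyz2 had at most 3 counts. Of 6 epithelial markers 2 were tested, and Krt14, the most abundant, rose from 3.07 ± 3.05 to 18.5 ± 3.08 CPM (SD, n = 6 each; log2 fold change 2.52, SE 0.41, edgeR adjusted p = 0.000586). Without library 6 its log2 fold change was 3.32 (SE 0.16, edgeR adjusted p = 1.88e-10). The other, Cdh1, the gene of E-cadherin, fell from 4.78 ± 0.397 to 3.32 ± 0.92 CPM (SD, n = 6 each; log2 fold change -0.54, SE 0.16, edgeR adjusted p = 0.0162). Csf1r, Itgam and Cdh1 were named after their values were seen. Krt5, the usual partner of Krt14, was at 0 counts in every library, and Epcam and Krt18 had at most 3 counts. The part of the myotube, myoblast, fibroblast, leukocyte and epithelial markers in the change of Lama1, Lamb3 and the other called genes was not tested.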

How the data were processed

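The 12 libraries of C2C12 myotubes were assigned to 4% horse serum or 4% STEM by their labels. They were made from total RNA depleted of ribosomal RNA with a stranded kit. The authors deposited raw read counts per Ensembl gene on GRCm38, with no normalization. The submitters' processing notes name STAR 2.7.3a, featureCounts 1.6.3 and DESeq2 1.26.0. The strand setting of the counting is not given in the sources used here. Without it, reads of overlapping genes on opposite strands cannot be assigned with certainty.

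Gene symbols, coordinates and exon lengths came from GENCODE M21, which held 55227 of the 55487 genes. The remaining genes took up 0.00268% of all counts. Counts were found in any library for 29620 genes. The counts were tested with edgeR 4.0.16 in R 4.3.3 (TMM normalization, filterByExpr, glmQLFit with robust estimation, glmQLFTest, treatment as the only term), and p-values were adjusted by Benjamini-Hochberg over the 14175 genes left by the filter. Calls were made at an adjusted p of 0.05 or less. Log2 CPM for correlations used a prior count of 2. Values at or below 3 counts were treated as at the floor. Within groups, the chi-square per degree of freedom of 30 library pairs was between 3.54 and 76.6, with no sign of repeat deposits.

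On simulated counts of 14175 genes with 100 genes changed 4-fold and 100 changed 2-fold, edgeR recovered 99 and 95, with 3% of its calls false. On the same data the share of false calls was 10.9% for DESeq2, which found 100 and 96 of these genes, and 3% for limma-voom, which found 100 and 94. The simulated counts used the spread that edgeR had fitted for each gene, so the tools were not compared on neutral ground. No change below 2-fold was simulated, so recovery at the smaller changes of Lama2, Lamb2, Lamc1 and Nid2 is not known. The alternatives were DESeq2 1.42.0, voom from limma 3.58.1, 3 scalings, 2 filters, an offset for exon length and GC content, an adjusted p of 0.01, glmTreat against a 1.5-fold change, the longest transcript as length and leaving out each library. Promoter windows came from RefSeq (GRCm38.p6) and were matched by symbol.

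The members and lists were chosen with earlier results of these data known. The genes named were all members and further laminin chains, the 4 called genes of lowest p and the uncalled gene of highest CPM in each other list, the 5 genes most like Lamc1, and the most abundant gene of each marker list. A few list genes are not reported here and do not enter the list counts. Genes named outside this rule are marked as such or are marker genes at the floor, an overlapping gene or a marker partner.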

Additional observations from a re-analysis of the deposited data

Results flagged for a closer look

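In groups of 6 libraries, a value was looked at again where its gap to the nearest of the others exceeded 0.625 of the range of its group, which chance gives for about 1 in 20 groups. Of 22 groups of tested laminin chain and nidogen genes 2 did so, and 1 of these values was from horse serum library 6. Lama1 was at 9.02 CPM in horse serum library 6 and at most at 3.08 CPM in the others. Nid2 was at 219 CPM in horse serum library 1 and at least at 268 CPM in the others.

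Over all lists, 28 of 158 groups did so, 23 of them through horse serum library 6. For the genes named here, library 6 was lower than the rest of its group for Ntn4 (32.9 CPM, nearest 44.4 CPM), Sdc4 (135 CPM, nearest 232 CPM) and Itgb1 (1110 CPM, nearest 1250 CPM). It was higher than the rest for Sdc1 (465 CPM, nearest 383 CPM), Pxdn (311 CPM, nearest 221 CPM) and Krt14 (9.22 CPM, nearest 2.54 CPM). Horse serum library 5 was lower than the rest for Sparc (2200 CPM, nearest 2370 CPM). Relative to its group, library 6 thus lay on the side of the STEM libraries for Lama1, Itgb1, Sdc1, Sdc4, Pxdn and Krt14, and on the other side for Ntn4.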

How the results depend on the processing

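The 5 called members were called in the same direction under each scaling, filter and tool, with the offset for exon length and GC content and without any of the 12 libraries. Of these 3 were called at an adjusted p of 0.01, as were 3266 of all 14175 tested genes. With glmTreat (edgeR) against a 1.5-fold change 0 members were called, with 1 at an unadjusted p under 0.05, and Lama1 had an adjusted p of 0.0731 (5.65e-06 without horse serum library 6, when it was called). No count over all genes was taken with glmTreat. Leaving out a library gave 5 to 6 called of 9 tested members. Over all genes, the calls went from 4459 of 14295 tested (without horse serum library 2) to 7245 of 14267 (50.8%, without horse serum library 6). Of the tested list genes, 1 of 2 further laminin chains, 8 to 9 of 13 receptors and 3 to 5 of 11 glycosylation genes were called. So were 10 to 11 of 16 other basement membrane genes and 1 of 3 netrins. Groups did not overlap for 4733 genes without library 6, against 2439 with it. This count and the alternatives for the further laminin chains were added after the data were seen. So were the share of Lama2, the pairwise correlations of basement membrane genes and the marker list counts without library 6. Leaving out each library was planned for the receptor, glycosylation, netrin and other basement membrane counts. Lama5 held 65.6% to 67.2% of the alpha chain level in horse serum when a library was left out, and 54.3% with the longest transcript. The log2 fold change of Lama5 was -0.03 with the offset and -0.02 without STEM library 12, and that of Lamb1 was 0.02 without library 6. Gon4l had a correlation of 0.943 to 0.975 with Lamc1 when a library was left out, but only 2 to 4 of the 5 genes named as most like Lamc1 remained among the top 5, with 2 without STEM library 10 and 2 without STEM library 12. Other scalings moved the median log2 fold change of all genes most with the upper quartile, by which it fell by 0.0202. Among the members, Lama3, Lama4 and Lama1 have the fewest counts, which limits their precision. No paired analysis was possible because the libraries carry numbers 1 to 6 in horse serum and 7 to 12 with STEM, with no number shared.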

Other observations

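Hspg2, Lama5 and Nid1 followed each other across the libraries of each group. In horse serum libraries 1 to 6 Hspg2 was at 263, 346, 266, 220, 384 and 401 CPM, and in STEM libraries 7 to 12 at 319, 423, 446, 237, 610 and 667 CPM. Lama5 was at 183, 218, 190, 190, 224 and 239 CPM and at 178, 206, 221, 155, 265 and 277 CPM in the same libraries. Nid1 was at 190, 201, 182, 159, 191 and 206 CPM and at 153, 177, 160, 132, 181 and 189 CPM. STEM library 10 had the lowest value of its group for all of these genes and STEM library 12 the highest.

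The correlation of Lamb3 over the 12 libraries after removal of the group means was 0.636 with Lama4, 0.464 with Lama2, 0.312 with Nid1, 0.0972 with Lama5, -0.0155 with Lamb2, -0.0372 with Nid2, -0.193 with Lamc1, and -0.258 with each of Lama1 and Lamb1. Without library 6 it was 0.512 with Lama4, 0.507 with Nid1 and 0.492 with Lamb2, and between 0.0454 (Lamc1) and 0.261 (Lama2 and Lama5) with the other members that were tested.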
